A study of Mus musculus with 6 samples.

Results

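The 8 genes described here are core parts of the Hedgehog signalling pathway: the ligand gene Dhh, the receptor genes Ptch1 and Hhip, the signal transducer Smo, the inhibitor Sufu, and the transcription factors Gli1, Gli2 and Gli3. They were taken by gene name from a table of 30862 gene rows, and each name matched 1 row. Expression was measured by RNA sequencing of cultured mouse ovarian granulosa cells, the somatic cells that surround the oocyte, in 3 control libraries and 3 libraries from cells given polystyrene particles (PS-MPs). The cells of both groups came from ovaries of 21-day-old post-weaning female ICR mice and had adhered for 12 h. They then spent 24 h with sonicated 100 nm particles at 750 µg/mL (PS-MP) or with none (0 µg/mL, control), and no transgene or knockout was involved. The labels call the libraries biological replicates 1 to 3 of each group. They do not say whether these came from separate mice or cultures, so a p-value here measures only how far libraries spread, which may in part be technical.

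Hedgehog ligands are secreted proteins that bind the membrane receptor Patched1 (Ptch1). Unbound Patched1 keeps Smoothened (Smo) inactive; ligand binding releases Smoothened into the primary cilium, and Gli transcription factors are then freed from Sufu and activate target genes. Ptch1, Gli1 and Hhip are themselves target genes in many tissues, so their mRNA is a customary readout of pathway activity. In the mouse ovary, granulosa cells of growing follicles are known to make Dhh and Ihh, and the surrounding theca and stromal cells to respond to them.

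Libraries held 56967176 to 70240738 estimated counts, and 11439 to 11608 genes per library reached 1 FPKM (fragments scaled to transcript length and to library size). Most granulosa markers were low: Foxl2, a factor needed to keep granulosa cells from losing their identity, averaged 0.112 and 0.109 FPKM in control and PS-MP libraries, and Cyp11a1, which starts steroid synthesis, 0.00848 and 0.0150 FPKM. Among the 8 granulosa markers found, 3 reached a mean of 1 FPKM over all libraries. They were Inhba at 122 and 112 FPKM, Fst at 5.65 and 5.01 FPKM and Inha at 0.932 and 1.10 FPKM. The smooth muscle marker Acta2 stood at 1851 and 1807 FPKM and the fibroblast marker Col1a1 at 691 and 618 FPKM. Of the smooth muscle and pericyte list 7 of 8 genes reached a mean of 1 FPKM over all libraries, and Rgs5 was low at 0.160 and 0.143 FPKM. Of the fibroblast list 4 of 6 did. Its low members were Lum at 0.278 and 0.556 FPKM and Tcf21 at 0.220 and 0.236 FPKM. Foxl2 and most other granulosa markers thus go against the label, though not Inhba, Fst and Inha. The cells are called here by that label alone. In such bulk samples, fewer cells of a type and less RNA per cell cannot be told apart.

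The 8 genes fell into those measured well and those at the edge of detection. The level was at least 0.5 FPKM in every library for 5 of them (Smo, Sufu, Gli3, Gli2 and Ptch1) and under 0.2 FPKM in every library for the other 3 (Gli1, Dhh and Hhip). Over all 6 libraries the mean levels were 19.4 FPKM for Smo, 5.92 for Sufu, 4.88 for Gli3, 1.73 for Gli2, 0.982 for Ptch1, 0.0663 for Gli1, 0.0260 for Dhh and 0.0136 for Hhip. From Smo to Gli1 no gene's range over libraries overlapped that of its neighbour in this order. Gli1 lay above Dhh in 5 of 6 libraries and Dhh above Hhip in 4 of 6, and those ranges overlapped, so the order of the last 3 genes is not settled. The widest step was that from Ptch1 to Gli1, at 14.8-fold.

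**Figure D1:**
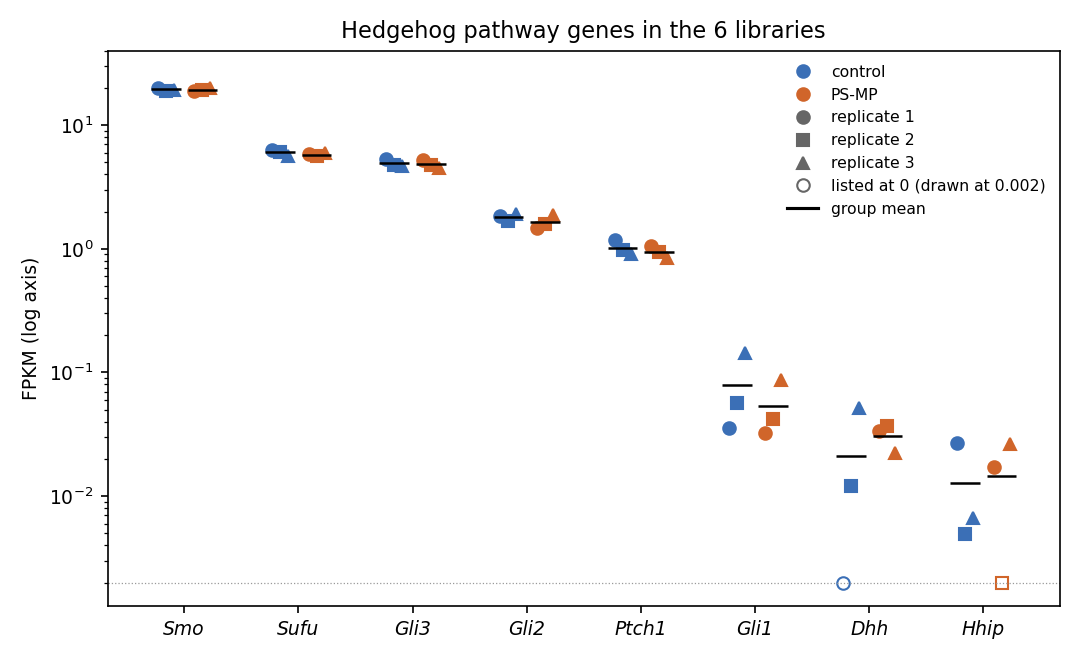
FPKM on a log axis of the 8 Hedgehog pathway genes, in order of their mean. Each point is 1 library (blue control, orange PS-MP, with the marker shape giving the replicate number), black bars are group means (n = 3 each) and open points are values listed at 0. Smo, Sufu, Gli3, Gli2 and Ptch1 lie between 0.843 and 19.9 FPKM with little scatter, while Gli1, Dhh and Hhip stay at or below 0.143 FPKM, and control and PS-MP points overlap for each gene.

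The ligand gene was close to undetected. Dhh, which encodes Desert hedgehog (ENSMUSG00000023000, chromosome 15, 98789033 to 98796421, minus strand, GRCm39), was listed at 0, 0.0122 and 0.0514 FPKM in control 1, 2 and 3 and at 0.0336, 0.0366 and 0.0222 FPKM in PS-MP 1, 2 and 3. These values rest on 0, 4, 15, 12, 12 and 7 estimated counts in the same order. Control libraries held both the lowest and the highest value, so the groups overlapped. If 1 count stood for 1 fragment, the 0 of 56967176 counts in control 1 would allow up to 3 counts. That is 0.0527 CPM (counts scaled to library size), with counting error only. The deposited counts cluster at 4, so a fragment may weigh more than 1 count and the limit may be higher. Other genes cover 28.3% of the exon bases of Dhh, 546 bases on the same strand by Rhebl1 and 1248 on the opposite strand by Gm49442, so part of even these few counts cannot be assigned to Dhh with certainty. Its fitted log2 fold change (PS-MP over control) was 0.59 ± 1.03 (SE), with a 95% interval of -1.82 to 3.00. That value was 1.05 with the replicate number as a block, 1.52 by limma-voom, 0.03 without control 1 and 2.22 without control 3, so its size is not settled.

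Of the other ligands, Ihh (Indian hedgehog) was listed at 0, 0 and 0.0674 FPKM in control 1 to 3 and at 0.0172, 0.0598 and 0 FPKM in PS-MP 1 to 3, and was too low to be tested. Shh was not analysed here. Of the 7 genes for ligands and their release in the table, 2 reached a mean of 1 FPKM, Disp1 and Hhat, and the 3 of highest level are described here. Those of the Scube family, secreted proteins that help release ligand, were low, with means over all libraries of 0.0286 FPKM for Scube1, 0.0238 for Scube2 and 0.0930 for Scube3. Disp1, the transporter that releases lipid-modified Hedgehog proteins from the cells that make them, averaged 16.2 ± 1.596 FPKM without particles and 16.6 ± 0.884 FPKM with them (SD, n = 3 each, as for all ± values in FPKM). Hhat, the enzyme that attaches palmitate to Hedgehog ligands, averaged 1.23 ± 0.0726 and 1.31 ± 0.128 FPKM, and Disp2, a homologue of Disp1, 0.350 ± 0.0716 and 0.382 ± 0.0658 FPKM.

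Ptch1, the ligand receptor (ENSMUSG00000021466, chromosome 13, 63656142 to 63721274, minus strand), was measured at 1.17, 0.976 and 0.915 FPKM in control 1, 2 and 3 and at 1.05, 0.946 and 0.843 FPKM in PS-MP 1, 2 and 3. The highest value in each group was that of replicate 1, and the lowest that of replicate 3. Within each replicate number the PS-MP library was the lower one, at 0.894, 0.970 and 0.921 times its control, yet the groups overlapped because the numbers differed among themselves by more than that. The log2 fold change was -0.13 ± 0.13 (SE; 95% interval -0.44 to 0.18; adjusted p = 1.00 by edgeR's quasi-likelihood test with Benjamini-Hochberg adjustment). No exon base of Ptch1 lies in another annotated gene.

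Hhip encodes a membrane protein that binds Hedgehog ligands and limits their action (ENSMUSG00000064325, chromosome 8, 80692480 to 80784635, minus strand). It was listed at 0.0269, 0.00494 and 0.00663 FPKM in control and at 0.0171, 0 and 0.0263 FPKM in PS-MP libraries, from 16, 4, 4, 12, 0 and 18 estimated counts. The groups overlapped over nearly their whole range, and the library at 0 was PS-MP 2. Its fold change of 0.13 ± 1.13 on the log2 scale (SE; interval -2.53 to 2.80) had no settled sign: it was -0.12 with the replicate number as a block and -0.54 by limma-voom.

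Smo, the transducer that carries the signal across the membrane (ENSMUSG00000001761, chromosome 6, 29735502 to 29761364, plus strand), was the most abundant of the 8 and the steadiest. It was measured at 19.9, 19.0 and 19.3 FPKM in control and at 19.0, 19.3 and 19.9 FPKM in PS-MP libraries. The group means were 19.4 ± 0.464 and 19.4 ± 0.465 FPKM, and the log2 fold change was -0.02 ± 0.06 (SE; interval -0.17 to 0.12). Smo stood 17.1 to 23.6 times above its inhibitor Ptch1 in FPKM, with ratios of 19.2 ± 2.05 in control and 20.7 ± 2.74 in PS-MP libraries.

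Sufu, which holds Gli proteins in the cytoplasm and restrains them (ENSMUSG00000025231, chromosome 19, 46385335 to 46477243, plus strand), was measured at 6.35, 6.12 and 5.68 FPKM in control and at 5.84, 5.62 and 5.91 FPKM in PS-MP libraries. PS-MP 3 lay above control 3, whereas PS-MP 1 and PS-MP 2 lay below the controls of the same number. The log2 fold change was -0.08 ± 0.08 (SE; interval -0.26 to 0.10).

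The 3 Gli genes differed widely in level. Gli3, in mouse development mainly a repressor of target genes when no ligand is present (ENSMUSG00000021318, chromosome 13, 15637820 to 15904611, plus strand), was the highest, at 5.37, 4.73 and 4.66 FPKM in control and 5.22, 4.78 and 4.498 FPKM in PS-MP libraries. Replicate 1 was the highest library of each group, and the groups overlapped (log2 fold change -0.05 ± 0.09, SE; interval -0.26 to 0.17). Gli2, the main activator at the start of a response in mouse (ENSMUSG00000048402, chromosome 1, 118761862 to 118981349, minus strand), was measured at 1.83, 1.68 and 1.92 FPKM in control and at 1.47, 1.59 and 1.87 FPKM in PS-MP libraries. PS-MP was the lower library within each number, by the most in number 1 at 0.802 times the control and by little in number 3 at 0.977 times. Its log2 fold change was -0.16 ± 0.12 (SE; interval -0.45 to 0.13; adjusted p = 1.00 by edgeR). Gli3 exceeded Gli2 2.40-fold to 3.55-fold in FPKM over the 6 libraries.

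Gli1, an activator and itself a target gene of the pathway (ENSMUSG00000025407, chromosome 10, 127165751 to 127177843, minus strand), was low in every library. It was listed at 0.0358, 0.0570 and 0.143 FPKM in control and at 0.0325, 0.0417 and 0.0875 FPKM in PS-MP libraries, from 12, 21, 48, 13, 14 and 32 estimated counts. The replicate 3 libraries of both groups were the highest, and the groups overlapped. PS-MP lay below control within each number, at 0.908, 0.733 and 0.610 times. With so few counts the log2 fold change of -0.56 ± 0.64 (SE) had an interval of -2.07 to 0.94, and it was 0.14 without control 3. Gli1 stood at 0.0195 to 0.0748 of the FPKM of Gli2.

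GLI proteins bind DNA at sites resembling GACCACCCA. RefSeq promoter windows were found for 7 of the 8 genes (all but Gli1), and the 250 bases before the start site were searched on both strands for this motif, for its core ACCACCC, which lies inside it, and for the GC box GGGCGG. The full motif was in none of the 7 windows and in 0.225% of all 32851 windows. The core was in 1 of the 7, that of Gli2, against 3.92% of all windows, and the GC box in 6 of the 7, all but Smo, against 32.7%. The Gli2 window is shown because it alone held the core; it matched GRCm39 once on the chromosome, and its 154 bases that hold no annotated exon, at chr1:118981446-118981599, are given on the minus strand, 5′ to 3′, with the core (as its reverse complement) and the GC box in capitals. They lie before the first exon of the deposited gene model, which ends at 118981349, but inside an intron of a longer GENCODE transcript of Gli2 that starts farther upstream.
Gli2 upstream: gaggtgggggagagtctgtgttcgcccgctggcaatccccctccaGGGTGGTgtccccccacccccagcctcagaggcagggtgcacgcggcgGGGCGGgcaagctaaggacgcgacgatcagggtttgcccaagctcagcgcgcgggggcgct
A match of letters is a description of the window, not evidence of binding, and no binding was measured.

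None of the 8 genes differed between PS-MP and control beyond the spread between libraries. All 8 passed the filter on low counts, and edgeR called 0 of them (adjusted p under 0.05 with a change of 1.5-fold or more), against 0% of all 17186 tested genes. At an unadjusted p under 0.05 there were 0 of the 8, against 1.32% of all genes. DESeq2 called 0 of the 8, against 0.00582% of all genes, and limma-voom and limma-trend on FPKM also called 0. With the replicate number as a block, edgeR called 0 of the 8, against 0.00582% of all genes, and 0 had an unadjusted p under 0.05, against 4.94%. Both ends of the 95% interval stayed inside a 1.5-fold change for Smo, Sufu, Gli3, Gli2 and Ptch1, that is for 5 of the 8, against 57.2% of all tested genes. For Gli1, Dhh and Hhip, with 140, 50 and 54 counts over all libraries, it reached beyond that. A change of that size is thus not excluded for these genes. FPKM of the 2 groups did not overlap for 0 of the 8 genes, against 6.45% of all genes.

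The median log2 fold change of the 8 was -0.06, with 6 negative and 2 positive, beside a median of 3.39e-05 over all tested genes. Within replicate numbers, the median difference was -0.17, -0.09 and -0.04 in numbers 1, 2 and 3. In log2 CPM with TMM scaling, 4 of the 8 (Ptch1, Gli1, Gli2 and Gli3) were lower with PS-MP within all 3 numbers and 0 were higher in all 3, beside 13.3% and 14.6% of all tested genes. In FPKM it was 3 of the 8, since Gli3 was slightly higher in PS-MP 2 than in control 2. The deposited FPKM sum to slightly more per library with PS-MP, at 284964 to 290681 against 274177 to 283405. None of these 4 genes passed the test, with the replicate number as a block or without it.

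**Figure D2:**
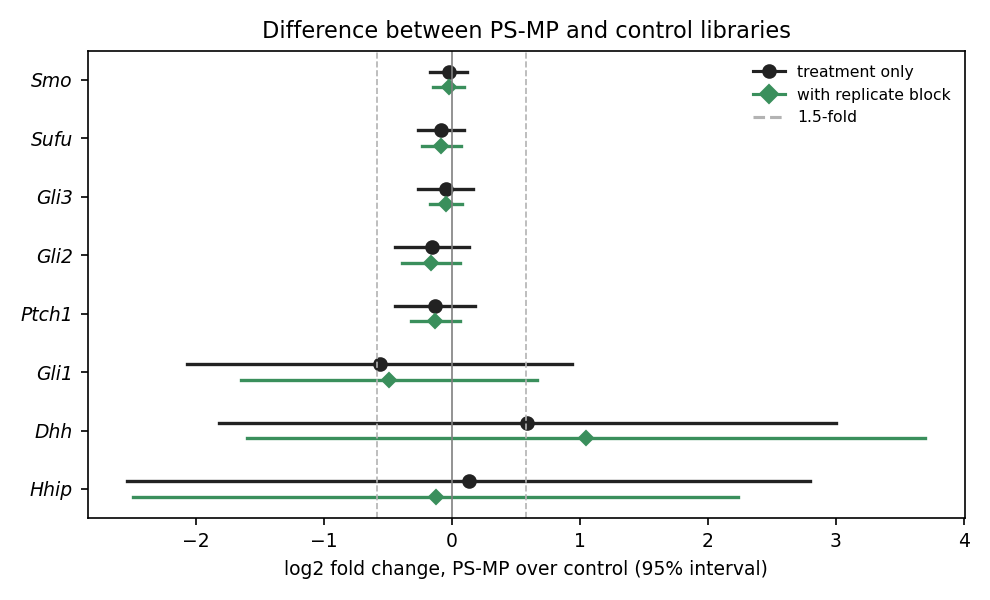
Log2 fold change of PS-MP over control (x axis) for the 8 genes, with 95% intervals from edgeR over 6 libraries, fitted on treatment only (black circles) and with the replicate number as a block (green diamonds); dashed lines mark 1.5-fold. The intervals of Smo, Sufu, Gli3, Gli2 and Ptch1 stay inside 1.5-fold and include 0, and those of Gli1, Dhh and Hhip reach well beyond it.

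The rest of the pathway did not differ detectably between the groups either. Of 51 other Hedgehog pathway genes in 5 lists, 50 were in the table and 48 were tested. Fitted on treatment only, edgeR called 0 higher and 0 lower, against 0% of all tested genes. An unadjusted p under 0.05 was found for 0, against 1.32%. The interval lay within 1.5-fold for 36, against 57.2%. With the replicate number as a block 0 were called, and 2 had an unadjusted p under 0.05 by edgeR, against 4.94% of all genes. They were Ccnd1 (log2 fold change 0.12) and Dyrk2 (-0.16), the latter named after its values were seen. The block also brought some wide intervals inside 1.5-fold, such as Gas1 (-0.11 to 0.24) and Ccnd1 (0.02 to 0.23). Those of Scube1, Scube3, Foxl1 and Mycn still reached beyond it. On treatment only, the median log2 fold change of the 48 tested genes was -0.02, with 20 positive and 28 negative. Of the 46 genes that the deposited table annotates with the KEGG Hedgehog signalling term, a set that shares members with these lists and was looked up after the values were seen, 45 were tested and 0 were called.

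Genes of ciliary transduction had a median of -0.02 over 16 tested genes. Grk2, a kinase that phosphorylates Smoothened, averaged 22.1 ± 0.960 and 23.2 ± 2.07 FPKM in control and PS-MP libraries. Tulp3, which brings receptors into the cilium, averaged 9.97 ± 0.188 and 9.67 ± 0.475 FPKM, and Kif3a, a motor subunit of transport into the cilium, 5.59 ± 0.755 and 5.96 ± 0.571 FPKM. Of the 16 genes 15 reached a mean of 1 FPKM, so transcripts for cilium-based signalling were broadly present.

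Kinases and ubiquitin ligases that act on Gli proteins had a median of -0.03 over 12 tested genes. Prkar1a, the regulatory subunit of protein kinase A, averaged 91.7 ± 0.691 and 91.9 ± 0.940 FPKM. Prkaca, a catalytic subunit of the kinase whose phosphorylation of Gli2 and Gli3 leads to their processing, averaged 57.3 ± 2.63 and 54.7 ± 3.79 FPKM. Spop, a ubiquitin ligase adaptor for Gli2 and Gli3, averaged 50.5 ± 4.31 and 49.7 ± 7.503 FPKM.

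Genes described as Hedgehog targets in other cells had a median of -0.01 over 10 tested genes. Ccnd1, which encodes cyclin D1 and has many other inputs, averaged 186 ± 79.8 and 206 ± 93.0 FPKM, Ccnd2 (cyclin D2) 52.6 ± 4.06 and 52.6 ± 3.79 FPKM, and Foxf2, a forkhead factor of mesenchyme, 10.1 ± 1.58 and 10.3 ± 1.91 FPKM. These are the 3 of highest level in the list, in which Mycn, at a mean of 0.195 FPKM over all libraries, was the lowest.

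**Figure D3:**
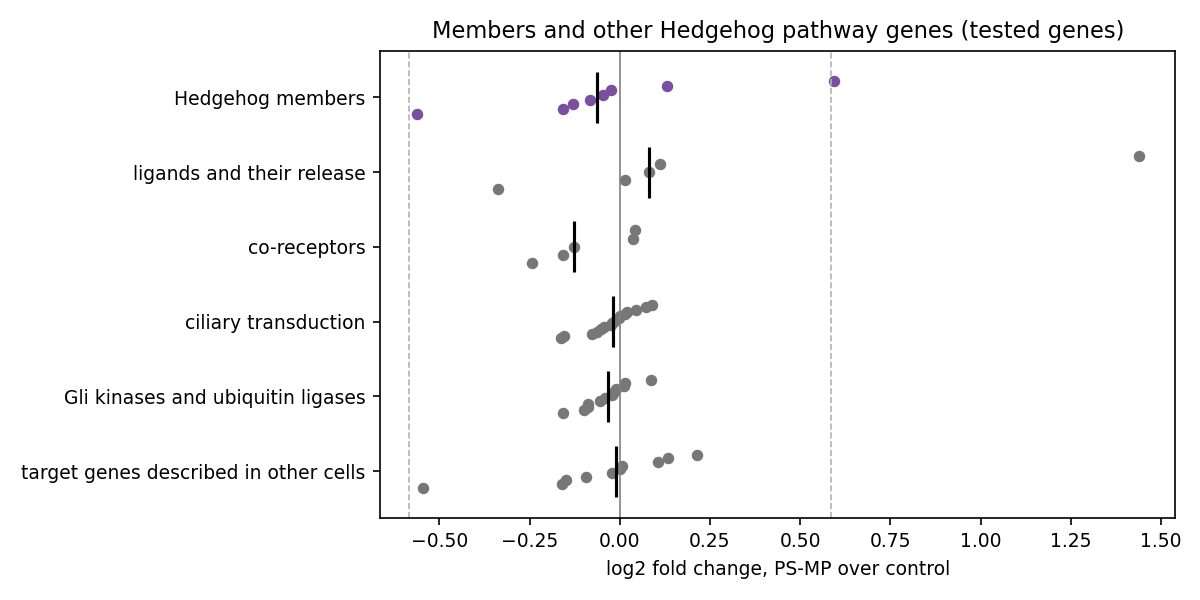
Log2 fold change of PS-MP over control (x axis) for each tested gene of the 8 members (purple) and of 5 lists of other Hedgehog pathway genes (grey); black bars are list medians and dashed lines mark 1.5-fold. Medians lie between -0.13 and 0.08; past 1.5-fold lie only the member Dhh (0.59) and the list gene Scube1 (1.44), neither of them called.

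Between replicate numbers, 4 of the 5 genes listed as co-receptors differed, from 2.15-fold for Cdon to 18.6-fold for Gpc3. Gpc3 binds ligand but competes with Patched1 for it, so it is a co-receptor only by the name of the list. That name is used below for all 5 genes. This comparison was chosen after the values were seen; it tests numbers 1, 2 and 3 against each other in edgeR with treatment kept as a term, and a call needs an adjusted p under 0.05 and number means spanning 1.5-fold or more. It called 0 of the 8 members and 4 of 5 co-receptors, against 7.34% of all tested genes. Limma-voom also called 0 members and 4 co-receptors, against 7.33% of all genes. By edgeR 2 of the 8 members, Ptch1 and Gli3, had an unadjusted p under 0.05, against 29.2% of all genes. All 4 co-receptors were lower in number 3 than in number 1, a direction called for 2.6% of all genes (the opposite one for 4.74%). The count over all genes was not stable: 1261 genes were called with all libraries, 749 without control 1 and 731 without PS-MP 1. It also moved with the filter on low counts, as given in the last section. The 4 co-receptors were called with any 1 library left out.

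Gas1, a membrane-anchored protein that helps Patched1 bind ligand, was measured at 19.3, 11.6 and 7.59 FPKM in control 1, 2 and 3 and at 19.5, 11.6 and 9.02 FPKM in PS-MP 1, 2 and 3. The 2 libraries of each number lay close together and apart from the others, and number 3 was 1.22 lower than number 1 on the log2 scale (a difference of -1.22; adjusted p = 0.00064 by edgeR). Cdon, a co-receptor of the immunoglobulin family, showed the same order at 3.01, 1.901 and 1.46 FPKM in control and 3.21, 2.03 and 1.43 FPKM in PS-MP libraries (-1.10; adjusted p = 0.00116 by edgeR). Boc, a close relative of Cdon, was measured at 11.7, 9.66 and 8.07 FPKM in control and 10.5, 9.29 and 7.57 FPKM in PS-MP libraries. Boc had an adjusted p of 0.00843 (edgeR) but a difference of -0.50, under the 1.5-fold required.

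The other pair of called genes, named after their values were seen, varied more. Lrp2 (megalin), an endocytic receptor that can bind Hedgehog ligands, was measured at 0.848, 0.293 and 0.110 FPKM in control and 0.744, 0.224 and 0.107 FPKM in PS-MP libraries, and was 7.29-fold higher in number 1 than in number 3 (adjusted p = 0.000233 by edgeR). Gpc3, a glypican that competes with Patched1 for ligand, was at 2.62, 0.571 and 0.151 FPKM in control and 2.32, 0.604 and 0.110 FPKM in PS-MP libraries. That is a difference of 18.6-fold (adjusted p = 0.000253 by edgeR). Its values in control 3 and PS-MP 3 rest on only 27 and 22 estimated counts, so the size of that fold is uncertain. Gli1, highest in the replicate 3 libraries, did not pass between numbers (adjusted p = 0.193 by edgeR). Ptch1, highest in number 1, did not pass either (difference of number 3 from number 1 of -0.33; adjusted p = 0.141 by edgeR).

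Markers of several cell types also differed between numbers. Of 7 ovarian surface epithelium markers, all but Krt7 were called between numbers, these 6 lower in number 3 than in number 1, and the summed FPKM of the list was 28.7, 10.6 and 4.14 in control and 32.9, 10.5 and 4.17 in PS-MP libraries. None of the 7 was at 0 in the number 1 libraries, and Upk3b was at 0 in both number 3 libraries: Krt8, Krt18 and Upk1b stood at 4.16, 11.0 and 8.53 FPKM in control 1. The part of these cells in the co-receptor values was not tested. Fibroblast markers summed to 1295, 911 and 687 FPKM in control and 1080, 870 and 707 FPKM in PS-MP libraries, with 3 of 6 called, 2 of them lower in number 3 and 1 (Dcn) higher. Most of these sums came from Col1a1, at 968, 645 and 459 FPKM in control 1, 2 and 3. Pericyte and smooth muscle markers summed to 2487, 2296 and 1828 FPKM in control and 2516, 2202 and 1656 FPKM in PS-MP libraries, with 4 of 8 called, 3 of them lower in number 3 and 1 (Notch3) higher. Most of these sums came from Acta2, which was not called, at 2064, 1938 and 1550 FPKM in control 1, 2 and 3. The sums therefore do not show each list falling as a set. Of the other lists, 1 of 6 tested granulosa markers (Fst) and 1 of 2 theca and steroidogenic markers (Star) were called. So was 1 of 3 tested endothelium markers (Kdr), and each of these was lower in number 3. None of the tested leukocyte, oocyte and Schwann cell markers was called. Over all tested genes the share called was 7.34%. The part of these other cell types in the co-receptor values was not tested either.

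**Figure D4:**
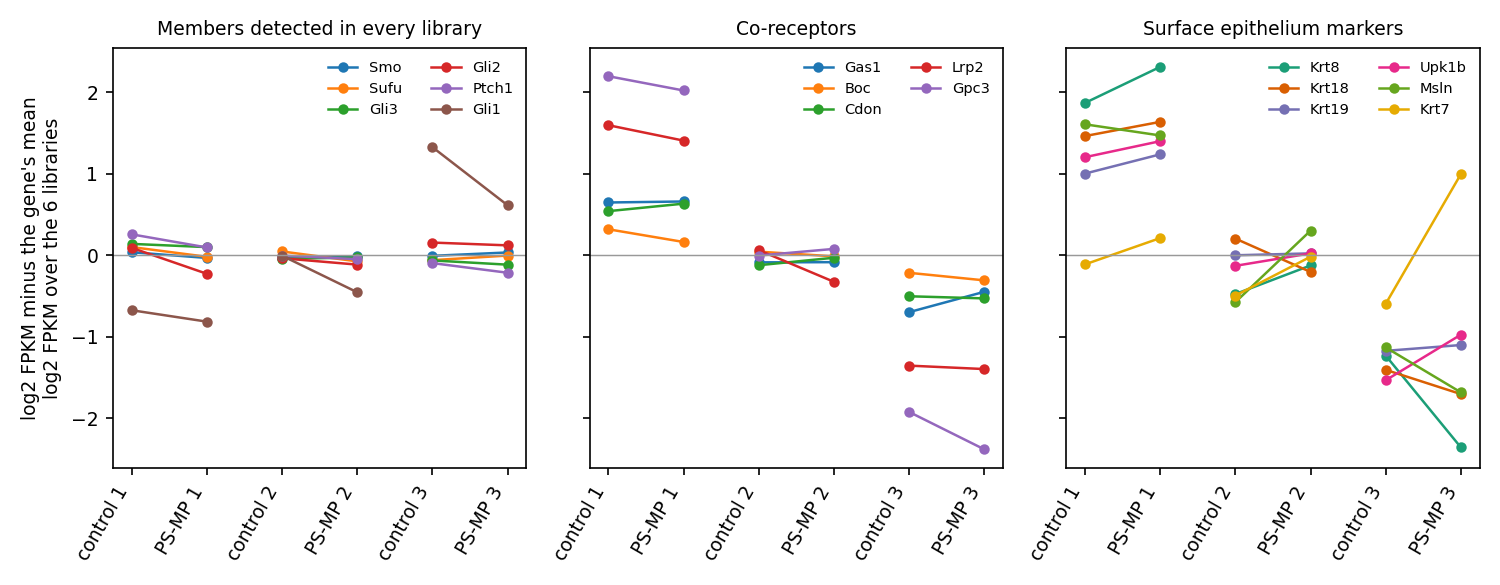
Log2 FPKM of each gene minus its mean log2 FPKM over the 6 libraries (y axis), with lines joining the control and PS-MP library of the same replicate number: the 6 Hedgehog members detected in every library (left), 5 co-receptors (middle) and 6 of the 7 surface epithelium markers (right; Upk3b, at 0 in both number 3 libraries, has no log value). Gas1, Cdon, Lrp2, Gpc3 and, over a smaller range, Boc separate by number in the same order as Krt8, Krt18, Krt19, Upk1b and Msln but not Krt7. Smo, Sufu, Gli3, Gli2 and Ptch1 stay close to 0, although Ptch1 and Gli3 also separate in that order over a small range. Gli1 is highest in the replicate 3 libraries.

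Among target genes, 4 of 10 were called between numbers, in both directions, against 7.34% of all tested genes. Ccnd1 was at 100, 199 and 258 FPKM in control and 110, 213 and 296 FPKM in PS-MP libraries, 2.63-fold higher in number 3 than in number 1 (adjusted p = 0.000102 by edgeR). Bmp4, a secreted signal induced by Hedgehog in several embryonic tissues, was at 1.97, 0.625 and 0.478 FPKM in control and 2.16, 0.686 and 0.511 FPKM in PS-MP libraries, 4.14-fold higher in number 1 (adjusted p = 0.00166 by edgeR). The other called genes were Mycn, lower in number 3 (-2.23 on the log2 scale), and Foxl1, higher (0.93). Bmp4, Mycn and Foxl1 were named after their values were seen. Ligand-release, ciliary and Gli-modifying genes had 0 of 5, 0 of 16 and 0 of 12 called between numbers. No difference from the share over all genes is read from lists this short.

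The genes most like Gli1 over the 6 libraries, by Pearson's r of log2 CPM among 9323 genes of at least 10 CPM, were Rab23, a small GTPase (r = 0.996), Txnrd1, a thioredoxin reductase (0.988), and Npr3, a natriuretic peptide receptor (0.985). Rab23 was at 4.99, 5.17 and 6.08 FPKM in control and 5.03, 5.12 and 5.63 FPKM in PS-MP libraries. For Ptch1 they were Macf1, a cytoskeletal linker (0.994), Syde1, a GTPase-activating protein (0.991), and Bicc1, an RNA-binding protein (0.991). The Gli1 profile rests on only 12 to 48 estimated counts per library. The 6 points share replicate numbers and the ranking takes the best of all those genes, so these values only describe which profiles look alike.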

How the data were processed

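The submitters' processing notes name cutadapt 1.9, FastQC, HISAT2 2.2.1 and StringTie 2.1.6 and the genome build GRCm39; which annotation was used is not stated in the labels. Each library has FPKM and counts in the deposited table, per the file headers. The deposited counts are whole but cluster at 4 (6687 values, with 3161 at 3 and 2040 at 5), so they were treated as estimated counts, and rounding altered none. Libraries were matched by column name; 12 further columns of per-library values were not used. How strand entered the counting is not stated in the labels.

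Groups were compared with edgeR 4.0.16 under R 4.3.3 (filterByExpr, TMM, two-sided quasi-likelihood test, treatment only) on all 6 libraries, adjusted by Benjamini-Hochberg over 17186 genes, with the authors' stated thresholds of 0.05 and 1.5-fold. Alternatives used DESeq2 1.42.0 and limma 3.58.1. The fits were tested on simulated data. For PS-MP against control the simulated libraries held no difference between replicate numbers. They therefore do not show how well that fit finds changes in these libraries. Exon overlap came from GENCODE M39 and promoter windows from RefSeq (GRCm38.p6).

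Members and lists were chosen with earlier results of these data known. Named genes are the 8 members, Ihh, the 3 genes of highest mean FPKM in each pathway list (none had a called gene for PS-MP), and the 3 genes most like Gli1 and Ptch1; others were named after their values were seen. Not all genes fixed this way are reported here. To see whether replicate numbers pair libraries, deviations from group means were correlated over 9324 genes: libraries sharing a number gave 0.80, 0.14 and 0.60, all above the 0.1 taken to show pairing, although control 3 against PS-MP 2 (0.36) and control 2 against PS-MP 3 (0.16) passed it too.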

Additional observations from a re-analysis of the deposited data

How the results depend on the processing

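Under the 17 alternatives to the comparison of PS-MP with control, 0 members and 0 other pathway genes were called, and 345 of 386 fold changes of named genes kept their sign. A filter at 10 CPM leaves Gli1, Dhh, Hhip and Disp2 untested, and Hhip could not be fitted with the block without replicate 1. Over all genes 0 were called, against 1 by DESeq2, 1 with the replicate block, and, with that block and pair 1, 2 or 3 left out, 1, 15 or 9; the range with a library or pair left out was 0 to 15. The block changed no call of a named gene. The members' median was -0.06, and -0.14 to -0.01 with a library or pair left out.

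The cause of the sign changes, in log2 fold change, was not tested. They were Prkar1a (0.0032 by limma-trend with either pseudocount), Foxf2 (-0.0042 by limma-voom, -0.00072 with the block) and Hhip (-0.54 by limma-voom, -0.12 with the block). With the block and a pair left out they were Smo (0.016) without pair 1, Disp2 (-0.053) without pair 2, and Hhip (-1.47), Disp1 (-0.041), Gas1 (-0.023), Grk2 (-0.0061), Spop (0.0049) and Foxf2 (-0.035) without pair 3.

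With a library or pair left out, the ranges of the genes that changed sign were -0.057 to 0.016 for Smo, -0.10 to 0.019 for Gli3, -1.10 to 0.14 for Gli1, -1.47 to 1.19 for Hhip (-0.64 without PS-MP 3), -0.063 to 0.089 for Disp1, -0.0058 to 0.14 for Hhat, -0.053 to 0.27 for Disp2, -0.33 to 0.45 for Gas1, -0.26 to 0.015 for Boc, -0.31 to 0.38 for Cdon, -0.028 to 0.11 for Grk2, -0.0031 to 0.17 for Kif3a, -0.15 to 0.061 for Spop, -0.22 to 0.44 for Ccnd1, -0.078 to 0.040 for Ccnd2 and -0.16 to 0.12 for Foxf2. Dhh ran from 0.03 to 2.69.

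Between replicate numbers, alternatives chosen after seeing the data called 0 members. Over all genes 743 were called with no filter, 704 with the filter at 10 CPM and 731 to 1453 with a library left out. Co-receptors called numbered 4 under each setting but the filter at 10 CPM. That filter gave 2, because it leaves Lrp2 and Gpc3 untested. Gli1, Dhh and Hhip rest on 140, 50 and 54 counts in all, and the part of depth in their wide intervals was not tested.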
